A study of Mus musculus with 24 samples.

Results

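The genes described here are 10 genes of the PIWI-interacting RNA (piRNA) pathway of mouse male germ cells, *Piwil1*, *Piwil2*, *Piwil4*, *Tdrd1*, *Tdrd5*, *Tdrd6*, *Tdrd9*, *Ddx4*, *Mael* and *Mov10l1*. They were chosen by name, and the rows with these symbols were read from every count table. All 10 were found among the 24456 genes listed, and all 10 were among the 17170 genes that passed the filter on low counts. RNA was measured in tissue labelled testis from wild-type (WT) mice and of mice homozygous for a knockout of *Atad2* (KO), whose product binds chromatin through a bromodomain, on postnatal days 20, 22, 24 and 26. Each genotype had 4 libraries on each of days 20 and 22 and 2 on each of days 24 and 26, which makes 24 libraries (WT_d20_2 stands for WT, day 20, replicate 2). In the KO allele the upstream exons of *Atad2* are fused to *lacZ* and the next exon was removed by a Cre recombinase under the ubiquitous CMV promoter, so that the deletion is not limited to germ cells. The study describes its replicates as biological, and the labels do not tie the libraries to animals, so p-values measure the spread between these libraries. The labels' extraction text mentions purified spermatogenic cell fractions, while the study's methods describe RNA from harvested testes, and markers of Sertoli, Leydig and peritubular cells were detected in every library.

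piRNAs are small RNAs of the germ line that guide PIWI proteins to transposon transcripts and other targets. Long precursor RNAs are unwound, cut and loaded onto PIWI proteins in granules beside the mitochondria, where Tudor domain proteins hold the PIWI proteins through their methylated arginines. Mouse testis makes its largest amount of piRNA in pachytene spermatocytes, and fetal germ cells use the pathway to direct DNA methylation onto transposons. The days sampled cover the first wave of spermatogenesis, in which pachytene spermatocytes are followed by the first round and then elongating spermatids.

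The targeted gene was checked first. *Atad2* was at 34.0 ± 3.01 CPM (counts relative to the TMM-scaled library size) in KO and 109 ± 42.6 CPM in WT at day 20, and at 38.9 ± 5.31 and 84.8 ± 8.93 CPM at day 22 (SD, n = 4 each), and over the mean of the 4 days it was lower in KO by a log2 fold change of -1.37 (SE 0.112, adjusted p = 1.23e-07, edgeR). It was called at days 20, 22 and 24 but not at day 26 (log2 -1.25, adjusted p = 0.0628, edgeR), where the groups did not overlap. The counts are per gene and include the exons that the KO allele keeps. Between 10709667 and 19491935 read pairs were assigned to genes in a library. The pachytene and early meiotic markers were each detected in every library, while *Tnp1* was at 0 in 4 libraries, *Prm2* in 3, *Prm1* in 2, and *Tnp2*, *Spaca3* and *Sun5* in 1 each. The summed level of 5 pachytene markers lay between 1458 and 2763 CPM over the libraries, and that of 6 early meiotic markers between 1017 and 1532 CPM. The 6 round spermatid markers rose in WT from 2.60 to 8.78 CPM in sum over the libraries of day 20 to 433 to 472 CPM at day 26. In KO the same sum was 7.26 to 83.8 CPM at day 20, where all 6 were called higher than in WT although KO_d20_2 lay below WT_d20_4 (8.78 CPM) in sum, and 436 to 480 CPM at day 26. Of 7 elongating spermatid markers, 3 were called higher in KO at day 20, 4 at day 22 and 7 over the mean of the days. With the day 20 libraries fitted alone no gene was called higher in KO, so the marker calls of that day were lost. Over the mean, 4 of 6 round spermatid markers and 1 of 6 Leydig cell markers were also called higher, and 2 of 5 peritubular and 2 of 4 endothelial markers lower. The part of these shifts in the genotype comparisons below was not tested. Markers of the epididymis, a tissue attached to the testis, ranged from 0 to 716 CPM in sum.

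All 10 genes were placed on mouse genome build mm10 with the GENCODE M21 annotation. *Piwil1* is at chr5:128702524-128755474 on the plus strand. On the minus strand lie *Tdrd6* (chr17:43615335-43630299), *Mael* (chr1:166201201-166238747), *Tdrd5* (chr1:156255296-156303664), *Piwil4* (chr9:14696230-14740733), *Ddx4* (chr13:112598333-112652475) and *Piwil2* (chr14:70372477-70429383). On the plus strand lie also *Mov10l1* (chr15:88982909-89055152), *Tdrd1* (chr19:56826209-56870012) and *Tdrd9* (chr12:111971559-112068854). Genes on the same strand overlap *Tdrd5* (A430050A11Rik), *Piwil2* (Gm22725 and Gm24890) and *Mov10l1* (Gm23737), so the counts of these members are uncertain where read pairs could be placed in either gene.

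Promoter sequence was available from RefSeq (GRCm38.p6, the same build) for 8 of the 10 members, with 11 start sites. It was searched because A-MYB and TCFL5, encoded by *Mybl1* and *Tcfl5*, are transcription factors that drive pathway genes in pachytene spermatocytes. The bases from 250 upstream to the start site were searched on both strands for GCAGTT, the core of an A-MYB site, and for CACGTG, the palindromic E-box core. The E-box core was not assigned to TCFL5 or to any other factor. The E-box was found for 6 of the 8 members, against 6.86% of all 27025 genes, and at 7 of their 11 start sites, against 6.02% of all 32851 promoters. The A-MYB core was found for 2 of the 8, *Piwil1* and *Tdrd1*, against 12.7% of all genes, and at 2 of the 11 start sites, against 11.1% of all promoters. Base composition was not matched, and a match is a description of letters and not of binding. The windows below show the E-box of the member that rose most clearly after *Tdrd6*, of the member that fell and of 3 others. The E-box described is in capitals, each window is read 5′ to 3′ on the strand of its gene, and none of the windows shown overlaps an annotated exon.
Mael (chr1:166238922-166238994, minus strand): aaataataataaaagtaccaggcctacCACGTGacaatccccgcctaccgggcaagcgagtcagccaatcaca
Mov10l1 (chr15:88982744-88982793, plus strand): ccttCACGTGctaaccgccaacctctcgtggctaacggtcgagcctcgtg
Piwil1 (chr5:128736052-128736137, plus strand): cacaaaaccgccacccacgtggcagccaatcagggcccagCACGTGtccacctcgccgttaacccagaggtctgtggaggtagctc
Tdrd9 (chr12:111971424-111971509, plus strand): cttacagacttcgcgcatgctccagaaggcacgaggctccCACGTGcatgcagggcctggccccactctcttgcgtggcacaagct
Tdrd1 (chr19:56826158-56826208, plus strand): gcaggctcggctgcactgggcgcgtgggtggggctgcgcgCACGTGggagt
The E-box in capitals starts 223 bases upstream of the start site in *Mael*, 246 in *Mov10l1*, 154 in *Piwil1*, 95 in *Tdrd9* and 11 in *Tdrd1*, or 77 from another start site of *Tdrd1*. *Piwil1* holds another copy 179 bases upstream, which is in lower case in its window, and *Tdrd9* another 165 bases upstream. The window of that other *Piwil1* copy holds 3 bases of annotated exon, and that of *Tdrd1* from its other start site 35. In *Ddx4*, the remaining member with the E-box, it starts 29 bases upstream. The *Ddx4* window, not shown, holds 69 bases of annotated exon. *Mael*, which rose with age, and *Mov10l1*, which fell in WT, both hold the E-box.

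The PIWI proteins, the Tudor proteins and the helicases differed widely in level. On a scale of CPM per kb of exon in WT testis at day 22 (n = 4), *Mael*, which encodes a germ granule protein needed for transposon silencing, was the highest of the 10 at 450 ± 33.9, and *Ddx4*, the germ cell RNA helicase also known as VASA, was next at 199 ± 7.60. *Tdrd6*, which encodes an organiser of the chromatoid body of spermatids, followed at 111 ± 14.9 and *Piwil1*, the PIWI protein of pachytene spermatocytes and round spermatids, at 99.3 ± 6.32. The libraries of *Tdrd6* and *Piwil1* overlapped, so their order is not resolved. *Tdrd1*, whose protein binds MILI, the product of *Piwil2*, was at 62.9 ± 2.57 per kb, *Piwil2* itself at 54.2 ± 3.09 and *Mov10l1*, a helicase needed for processing of piRNA precursors, at 51.7 ± 3.79, and the last of these overlapped *Piwil2*. *Tdrd9*, a helicase with a Tudor domain, was at 43.5 ± 3.43 and *Tdrd5*, a Tudor protein of pachytene piRNA biogenesis, at 24.5 ± 0.414 CPM per kb. *Piwil4*, which encodes MIWI2, the nuclear PIWI protein of fetal germ cells, was at 0.160 ± 0.0272 CPM per kb and had 6 to 25 counts in a library, so that its differences between groups are poorly determined. At day 20 *Tdrd6* had rank 5 of the 10 and not 3, with WT_d20_2 its lowest library. Its libraries overlapped those of *Piwil1*, *Tdrd1*, *Mov10l1*, *Piwil2* and *Tdrd9*, so this rank is not resolved.

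**Figure D1:**
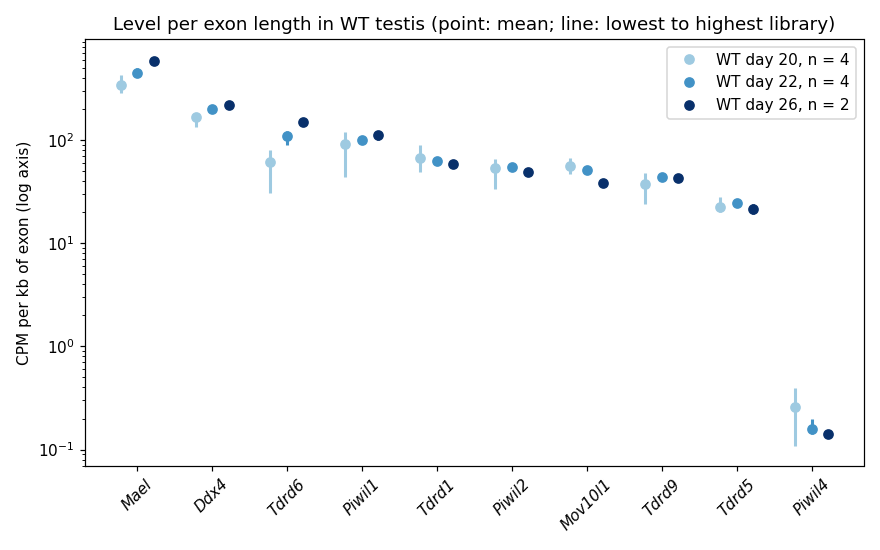
Level of the 10 genes per exon length in WT testis at days 20, 22 and 26, in CPM per kb of exon on a log axis. Points are means, vertical lines run from the lowest to the highest library (n = 4, 4 and 2), and *Piwil4* lies far below the other 9 genes.

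The first question is whether any of the 10 genes differed between KO and WT testis, which was tested for every gene in the table with edgeR's quasi-likelihood test and Benjamini-Hochberg adjustment, calling a gene at an adjusted p under 0.05. No member was called on any single day or over the mean of the days, with edgeR or with DESeq2. Only *Tdrd1* at day 22 had an unadjusted p under 0.05 (adjusted p = 0.191, edgeR). The share of all genes that was called was 3.34% for day 20, 2.51% for day 22, 0.0874% for day 24, 0.0466% for day 26 and 7.08% for the mean, which had the most libraries behind it. These shares moved with the fit. At day 20 the 573 genes called became 888 with DESeq2, 5 with the libraries of that day fitted alone and 151 without WT_d20_3, and at day 26 the 8 genes called became 159 with DESeq2 and 2104 of 16465 with that day fitted alone. At day 22 the 431 became 60 without WT_d22_4 and 858 without KO_d22_1, at day 24 the 15 became 0 without KO_d24_1 and 24 without WT_d24_1, and over the mean the 1215 became 302 without WT_d24_2. The median log2 fold change of the members was 0.09 over the mean of the days, and that of all genes 0.01.

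The intervals bound how large a difference could have been missed. Averaged over days, the 9 genes other than *Piwil4* had log2 fold changes between 0.00 in *Piwil2* and 0.18 in *Piwil1*, and their 95% intervals together ran from -0.21 to 0.44. For *Tdrd6*, the member with the lowest p, KO was 1.13 times WT with an interval from 0.951 to 1.35 times (adjusted p = 0.402, edgeR). For *Piwil1* it was 1.13 times, with an interval from 0.945 to 1.36 (adjusted p = 0.422, edgeR). The values of all 10 members lay above 0, but leaving out libraries moved *Piwil2*, *Piwil4* and *Tdrd9* below 0. Each day alone was less precise. Without *Piwil4* the values ran from -0.03 to 0.28 for day 20, from 0.02 to 0.41 for day 22, from -0.20 to 0.10 for day 24 and from -0.09 to 0.32 for day 26. Their 95% intervals together ran from -0.34 to 0.69 for day 20 and from -0.39 to 0.80 for day 22. For days 24 and 26 they ran from -0.69 to 0.69 and from -0.58 to 0.91. A gene expressed in a cell type that becomes rarer and a gene that makes less RNA per cell cannot be told apart in bulk testis.

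**Figure D2:**
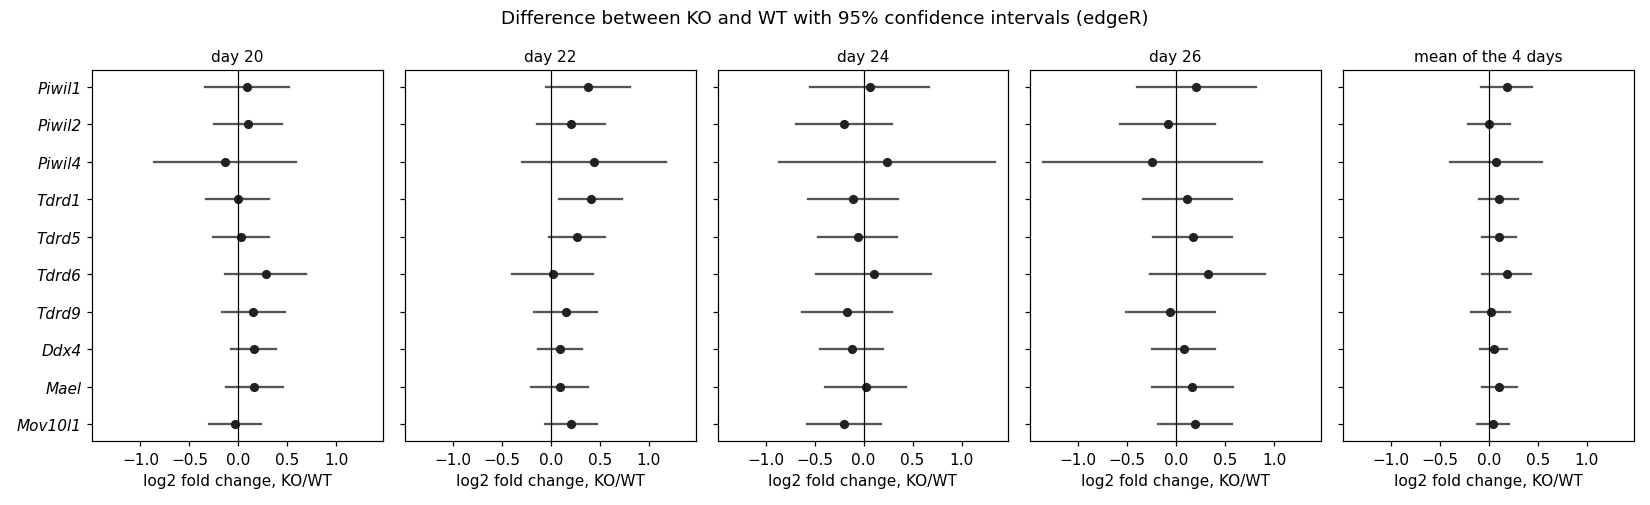
Log2 fold change of each gene, KO against WT, at each day and over the mean of the 4 days, with 95% confidence intervals from edgeR. The interval of *Tdrd1* at day 22 lies above 0, and the intervals of all other genes and comparisons include 0.

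*Piwil1* levels were 371, 423, 415 and 466 CPM in the KO libraries of day 20 and 521, 189.6, 471 and 397 CPM in the WT libraries in order of replicate number, and WT_d20_2 was the lowest of all. At day 22 the KO libraries were at 476, 554, 466 and 747 CPM and the WT libraries at 435, 398, 434 and 465 CPM. All 4 KO libraries lay above all 4 WT libraries, and KO_d22_4 was the highest by far, but the log2 fold change of 0.37 was not called (SE 0.207, adjusted p = 0.455, edgeR). Without KO_d22_4 it was 0.21. At day 24 KO was at 499 and 539 CPM and WT at 543 and 452, and at day 26 KO was at 576 and 542 CPM and WT at 438 and 531.

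*Tdrd6* levels were 482, 522, 553 and 568 CPM in KO and 572, 216, 454 and 508 CPM in WT at day 20. The spread in WT came from WT_d20_2. At day 22 KO was at 617, 900.4, 717 and 929.8 CPM and WT at 807, 629, 819.6 and 869 CPM, and the groups overlapped. At days 24 and 26 the KO libraries lay above the WT libraries, at 912 and 931 CPM against 880.4 and 835 CPM, and at 1336 and 1301 CPM against 971 and 1139 CPM. The log2 fold changes were 0.10 (SE 0.281) and 0.32 (SE 0.281), and neither was called.

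*Mael* was at 809, 710.1, 599 and 550.5 CPM in KO and 739, 499, 493 and 658 CPM in WT at day 20, with the groups overlapping. At day 22 KO was at 787, 988, 753 and 784 CPM and WT at 864, 728, 757 and 770.0 CPM. At day 24 KO was at 834 and 853 CPM and WT at 875 and 789 CPM, and at day 26 KO was at 1165 and 1089 CPM and WT at 936 and 1075 CPM. *Tdrd5* was at 156, 152, 161 and 167 CPM in KO and 196, 145, 142 and 140.3 CPM in WT at day 20. At day 22 it was at 174, 194, 172 and 278 CPM in KO and 173, 171, 166 and 170.1 CPM in WT, with KO_d22_4 far above the rest. At day 24 it was at 150.4 and 161 CPM in KO and 179 and 146 CPM in WT, and at day 26 at 168 and 169.9 CPM in KO and 134 and 166 CPM in WT.

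*Tdrd1* at day 22 was at 376, 439.7, 406 and 592 CPM in KO and 359.8, 347, 327 and 336 CPM in WT. KO lay above WT without overlap, and KO_d22_4 was the highest, with a log2 fold change of 0.41 (SE 0.155) that was 0.25 without KO_d22_4. At the other days the groups of *Tdrd1* overlapped. All KO libraries lay above all WT libraries for 0 of 10 members on day 20, 2 on day 22 (*Piwil1* and *Tdrd1*), 1 on day 24 (*Tdrd6*) and 5 on day 26 (*Piwil1*, *Tdrd5*, *Tdrd6*, *Mael* and *Mov10l1*). The same pattern held for 3.03%, 3.64%, 22.6% and 27.8% of all genes at these days, and at days 24 and 26 it rests on 2 libraries against 2. At day 22 the summed round spermatid markers were also higher in all KO libraries (78.5 to 274 against 54.3 to 75.7 CPM), and the endothelial sum was lower (24.4 to 50.5 against 57.0 to 64.0 CPM, with 1 of 4 markers called). At day 24 the sums were higher in both KO libraries for elongating spermatids (758 to 1533 against 424 to 479.9 CPM), Leydig cells (1023 to 1226 against 564 to 818 CPM) and blood (8.37 to 8.43 against 7.26 to 7.27 CPM). They were lower for peritubular cells (437 to 441 against 495 to 552 CPM), endothelium (45.5 to 51.7 against 55.6 to 72.9 CPM) and spermatogonia (150.1 to 161 against 162 to 167 CPM). At day 26 the summed pachytene markers were also higher in both KO libraries, at 2441 to 2500 CPM against 1949 to 2100 CPM in WT, as were the elongating spermatid markers, at 3060 to 3099 against 1859 to 2963 CPM. The sums were lower in both KO libraries for Sertoli cells (320.1 to 345 against 380.3 to 402 CPM), Leydig cells (1018 to 1142 against 1226 to 1986 CPM), spermatogonia (123 to 125 against 145 to 154 CPM), peritubular cells (269.7 to 312 against 363 to 436 CPM), macrophages (179 to 189 against 194 to 276 CPM) and endothelium (31.1 to 35.3 against 48.7 to 49.5 CPM). None of the markers in these lists was called at day 26, and the part of these differences in the levels of the members was not tested.

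The levels of the remaining members were as follows. *Mov10l1* was at 227 ± 22.1 CPM in KO and 232 ± 36.5 CPM in WT at day 20, at 249.5 ± 39.6 and 216 ± 15.9 CPM at day 22 (SD, n = 4 each), and at 179 ± 15.6 and 206 ± 44.7 CPM at day 24 (SD, n = 2 each). At day 26 it was at 183 ± 5.28 and 160.2 ± 9.58 CPM, where its KO libraries lay above its WT libraries. *Piwil2* was at 301 ± 31.4 CPM in KO and 281 ± 72.4 CPM in WT at day 20, and at 330.5 ± 79.4 and 287 ± 16.4 CPM at day 22 (SD, n = 4 each). At day 24 it was at 261 ± 12.6 and 299.9 ± 45.9 CPM and at day 26 at 245 ± 2.75 and 260.1 ± 25.3 CPM (SD, n = 2 each). *Tdrd9* was at 224 ± 12.9 CPM in KO and 202 ± 53.6 CPM in WT at day 20, at 261 ± 49.2 and 235 ± 18.6 CPM at day 22, at 221 ± 15.9 and 248 ± 34.7 CPM at day 24 and at 224 ± 4.63 and 233 ± 23.4 CPM at day 26. *Ddx4* was at 556 ± 37.4 CPM in KO and 499.6 ± 63.8 CPM in WT at day 20, at 638 ± 67.6 and 599 ± 22.9 CPM at day 22, at 576 ± 53.3 and 626 ± 69.4 CPM at day 24 and at 700.4 ± 13.6 and 664 ± 89.1 CPM at day 26. The groups of *Piwil2*, *Tdrd9* and *Ddx4* overlapped at every day. *Piwil4* lay between 0.413 and 2.11 CPM over all 24 libraries.

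**Figure D3:**
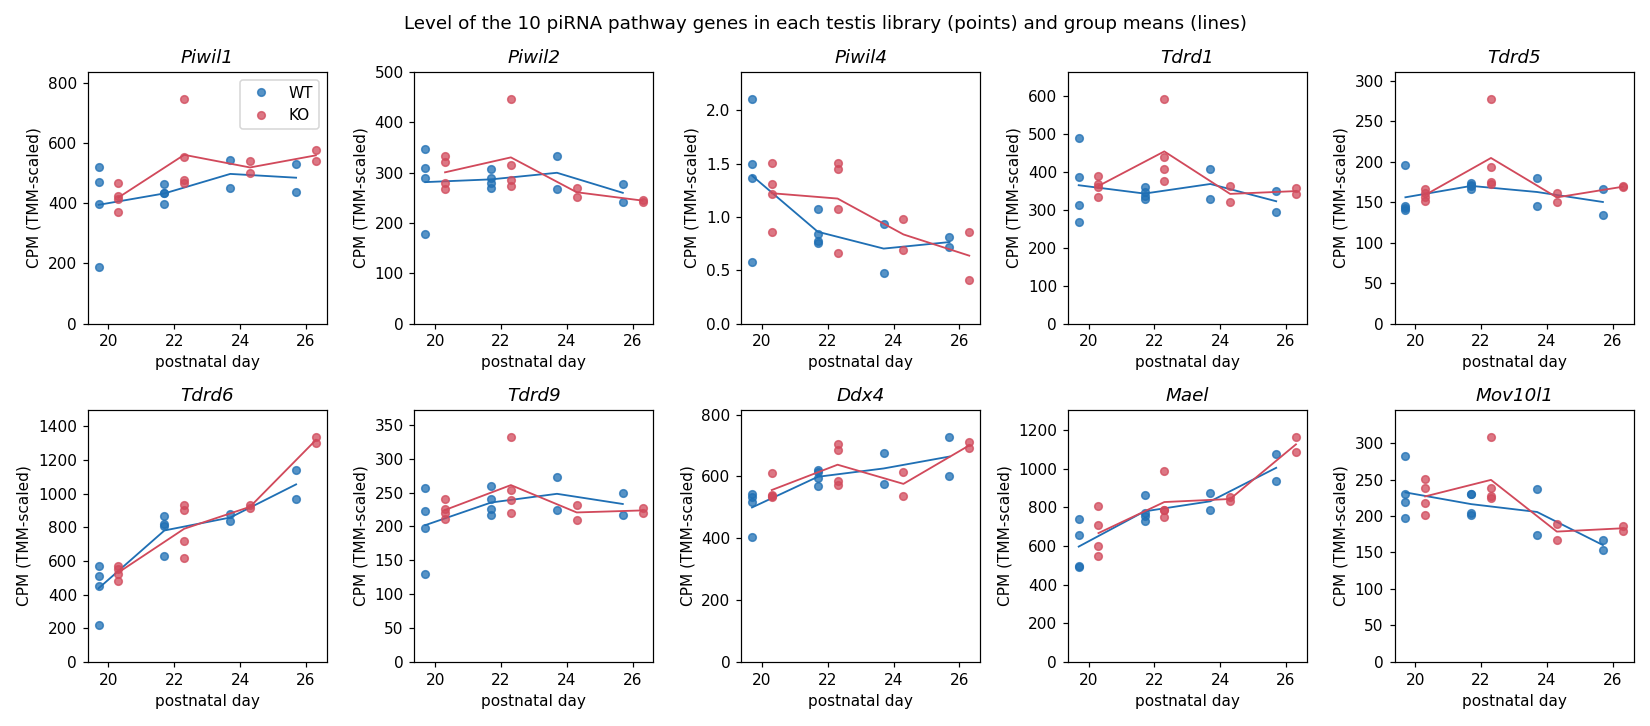
TMM-scaled CPM of each gene in every library, WT in blue and KO in red, by postnatal day, with lines through the group means. *Tdrd6* and *Mael* climb in both genotypes, and KO_d22_4 is the high point at day 22 in *Piwil1*, *Piwil2*, *Tdrd1*, *Tdrd5*, *Tdrd6*, *Tdrd9* and *Mov10l1*.

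A pair of libraries stood apart from their groups for many members, and both were singled out after their values were seen. WT_d20_2 was below all other WT libraries of day 20 for 6 of 10 members, *Piwil1*, *Piwil2*, *Tdrd1*, *Tdrd6*, *Tdrd9* and *Mov10l1*. The share of all genes with this pattern was not counted. Over all genes its difference from each of the others, as a chi-square per degree of freedom against sampling noise, was 94.2 to 129. Among those others this value was 14.0 to 28.5. WT_d20_2 was at 0.402 times the median of the other 3 for *Piwil1* and 0.426 times for *Tdrd6*, but at 1.03 times for *Ddx4* and 1.02 times for *Tdrd5*. Only for *Piwil4* was it above all of them, at 2.11 against 0.578 to 1.49 CPM. In the same library the summed pachytene markers were above those of the other 3, at 2763 CPM against 1458 to 1747 CPM, as were those of early meiosis (1532 against 1083 to 1236 CPM), macrophages, endothelium and blood, while the Sertoli cell and elongating spermatid sums were below. Read pairs with several alignments made up 13.7% of its table. KO_d22_4 was above all other KO libraries of day 22 for 7 of 10 members, with *Piwil1* at 1.57 times and *Tdrd5* at 1.59 times the median of the other 3, and its share of pairs with several alignments was 4.74%, the lowest of all 24. The share of all genes with this pattern was likewise not counted. Over all genes its chi-square per degree of freedom was 45.1 to 53.0 against each of the others, and 19.6 to 40.3 among them. In KO_d22_4 the sums of Leydig cell, peritubular, macrophage, endothelial and blood markers were below those of the other 3, with Leydig cell markers at 0.513 times their median. Its Sertoli cell sum was above them (610.1 against 441 to 550.4 CPM). The part of these differences in the results was not tested. With both libraries omitted, an alternative added after seeing the data, 0 of 10 members were called in KO against WT at any day or over the mean. The shares of all genes called at this setting are not given beside this count.

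**Figure D4:**
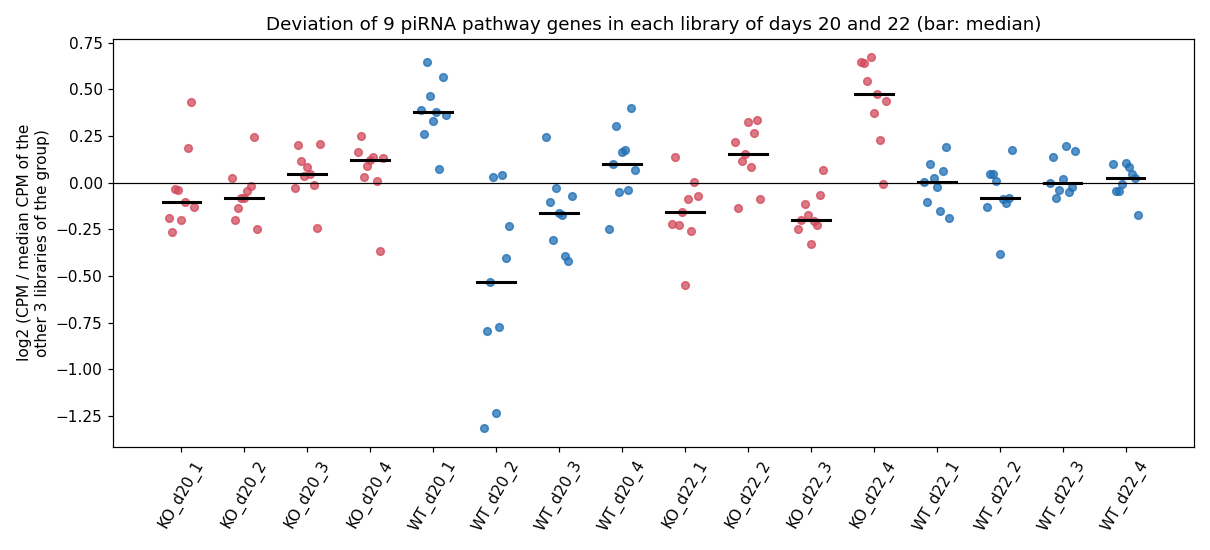
Log2 ratio of the CPM of 9 members (without *Piwil4*) in each library of days 20 and 22 to the median of the other 3 libraries of its group. Bars are medians over the members, -0.53 in WT_d20_2 and 0.47 in KO_d22_4, against -0.20 to 0.38 in the other 14 libraries.

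The course from day 20 to day 26 was compared within each genotype. In WT, *Tdrd6*, *Mael* and *Ddx4* rose and *Mov10l1* fell. *Tdrd6* rose from 438 to 1055 CPM, a log2 fold change of 1.27 (SE 0.235, adjusted p = 0.000176, edgeR). The day 20 mean includes WT_d20_2 at 216 CPM, and with 1 library left out in turn the value ranged from 1.005 to 1.389. *Mael* rose from 597 to 1005 CPM, by 0.75 on the log2 scale (SE 0.167, adjusted p = 0.0011, edgeR). *Ddx4* rose from 499.6 ± 63.8 CPM (SD, n = 4) to 664 ± 89.1 CPM (SD, n = 2), by 0.41 on the log2 scale (adjusted p = 0.016, edgeR). *Mov10l1* fell from 232 ± 36.5 to 160.2 ± 9.58 CPM, by 0.54 on the log2 scale (adjusted p = 0.0106, edgeR). The call of *Ddx4* was lost when WT_d20_3 or WT_d26_2 was left out (log2 0.29 and 0.27) and when the WT libraries of these days were fitted alone, and that of *Mov10l1* without WT_d26_1. The 2 libraries of day 26 did not overlap the 4 of day 20 for any of these genes. The members called were 3 of 10 higher and 1 of 10 lower, and of all genes 24.4% were higher and 18.1% lower, which gives shares of the members close to those of all genes. The 3109 genes called lower became 1377 without WT_d26_2 and 1835 without WT_d26_1. Over the same interval in WT, 6 of 6 round spermatid, 7 of 7 elongating spermatid, 6 of 6 Leydig cell and 2 of 5 pachytene markers were called higher. Markers called lower were 5 of 6 for Sertoli cells, 4 of 6 for spermatogonia, 3 of 5 for peritubular cells, 2 of 6 for early meiosis and 2 of 4 for endothelium. The part of these shifts in the course of the members was not tested.

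In KO, *Tdrd6*, *Mael* and *Ddx4* rose. *Tdrd6* rose from 531 to 1318 CPM (log2 1.31, SE 0.235, adjusted p = 0.000127, edgeR) and *Mael* from 667 to 1127 CPM (log2 0.76, SE 0.167, adjusted p = 0.000884, edgeR). *Ddx4* went from 556 ± 37.4 to 700.4 ± 13.6 CPM (log2 0.33, adjusted p = 0.0396, edgeR). *Mov10l1* was at 227 ± 22.1 CPM at day 20 and 183 ± 5.28 CPM at day 26 and was not called (log2 -0.31, adjusted p = 0.109, edgeR). The members called were 3 of 10 higher and 0 of 10 lower, with 27.2% of all genes higher and 24.9% lower. The 4283 genes called lower became 2268 without KO_d26_2 and 2853 without KO_d26_1. The call of *Ddx4* was lost with 5 of the 24 libraries left out in turn, KO_d20_2, KO_d20_3, KO_d20_4, KO_d26_1 and KO_d26_2. In KO, 6 of 6 round spermatid, 7 of 7 elongating spermatid, 2 of 6 Leydig cell and 3 of 5 pachytene markers were called higher. Lower were 5 of 6 Sertoli cell, 4 of 6 spermatogonial, 4 of 5 peritubular, 2 of 4 endothelial and 4 of 6 early meiotic markers, and 1 early meiotic marker was higher. The part of these in the course of the members was not tested.

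The PIWI genes were not called over the same interval in either genotype, but *Piwil1* in KO was called when WT_d20_2 was left out and *Piwil4* in WT when WT_d20_3 was. *Piwil1* was at log2 0.30 in WT, 0.026 without WT_d20_2, and at 0.42 in KO, *Piwil2* at -0.11 and -0.30, and *Piwil4* at -0.81 and -0.91. The other Tudor genes, *Tdrd1*, *Tdrd5* and *Tdrd9*, lay between -0.18 and 0.21 in both genotypes. The difference in course between the genotypes was tested directly, and no member was called in the change from day 20 to day 26 (lowest adjusted p = 0.800, edgeR) or in the joint test of the KO effect at days 22, 24 and 26 against day 20 (lowest adjusted p = 0.802, edgeR). Of all genes 0% were called for the change by edgeR, where 1857 had an unadjusted p under 0.05 and DESeq2 called 211, and 0.00582% in the joint test, where 1556 had an unadjusted p under 0.05 and DESeq2 called 272. Without KO_d20_2, edgeR called 326 genes for the change and 140 in the joint test. *Mov10l1*, called in WT and not in KO, had a difference in change of 0.23 with an interval from -0.23 to 0.69.

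**Figure D5:**
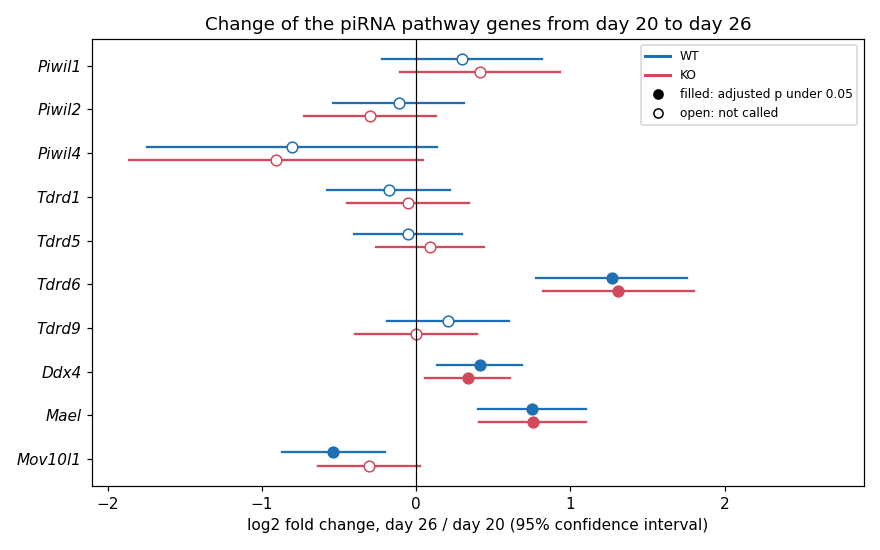
Log2 fold change from day 20 to day 26 of each gene in WT (blue) and KO (red) with 95% confidence intervals, filled where the adjusted p was under 0.05. *Tdrd6* and *Mael* rose in both genotypes, by 1.27 and 0.75 in WT and 1.31 and 0.76 in KO.

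For each member the gene outside the list with the most similar profile over the 8 group means was found among 15426 genes. The root mean square difference of centred log2 CPM was 0.0283 between *Tdrd6* and *Dnajb2*, 0.0244 between *Mael* and *Lrrcc1*, 0.0240 between *Ddx4* and *Adrm1*, 0.0336 between *Piwil1* and *Ppp1r26* and 0.0334 between *Piwil2* and *Nadk*. The values for the others were 0.0513 for *Tdrd1* and *Zkscan7*, 0.0429 for *Tdrd5* and *H2afy*, 0.0360 for *Tdrd9* and *Dhx37*, 0.0584 for *Mov10l1* and *Rbmxl1*, and 0.0555 for *Piwil4* and *Smyd3*. These pairs share libraries, and a likeness over 8 group means is a description.

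Of 22 other genes of the pathway, 21 were tested. *Tdrd7*, which encodes a Tudor protein of the chromatoid body, was the only one called in KO against WT, at day 20, where 3.34% of all genes were called. Its KO libraries were at 208, 190.0, 209 and 217 CPM and its WT libraries at 178, 128, 133 and 175 CPM, without overlap, a log2 difference of 0.42 (SE 0.110, adjusted p = 0.034, edgeR). The call was lost when KO_d20_1, KO_d20_3, KO_d20_4, WT_d20_2 or WT_d20_3 was left out, and when the day 20 libraries were fitted alone. With WT_d20_2 and KO_d22_4 both omitted *Tdrd7* was not called and *Gtsf1* was. At day 26, *Henmt1*, *Pld6*, *Tcfl5* and *Tex15* were called with the libraries of that day fitted alone, where 2104 of 16465 genes were called. *Pld6* was called over the mean without WT_d20_1. At day 20 6 of 6 round and 3 of 7 elongating spermatid markers were called higher in KO, calls that were also lost with the day fitted alone, and the part of this in the level of *Tdrd7*, which rose with age, was not tested. At days 22, 24 and 26 its log2 fold changes were 0.06, -0.13 and 0.12.

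From day 20 to day 26 in WT, 10 of these 21 genes were called, 5 higher and 5 lower, beside 24.4% and 18.1% of all genes. In KO the count was 9, with 6 higher and 3 lower, beside 27.2% and 24.9%. It became 14 without WT_d20_2 and 15 with KO_d22_4 omitted as well. These shares of all genes are from the fit of all libraries, and those of the fits with libraries omitted are not set beside the counts. No difference between the list and all genes was tested. The largest rises in WT were *Dnmt3l*, a cofactor of DNA methyltransferases, from 0.480 ± 0.246 to 4.76 ± 0.672 CPM (log2 3.35), *Tdrd7* from 154 ± 26.7 to 358 ± 39.0 CPM (log2 1.22), and *Gtsf1*, a partner of PIWI proteins, from 77.0 ± 24.0 to 158 ± 3.43 CPM (log2 1.04). *Dnmt3l* had 3 to 10 counts in a WT library of day 20, so the size of its rise is poorly determined, and it overlaps *Aire* on the other strand. The largest falls over all libraries were *Morc1*, needed for transposon silencing, from 27.5 ± 11.7 to 12.6 ± 0.356 CPM (log2 -1.12), with 44.5 CPM in WT_d20_2 and 18.3 to 24.8 CPM in the other WT libraries of day 20, *Fkbp6*, a cochaperone, from 80.8 ± 6.43 to 41.2 ± 0.320 CPM (log2 -0.97), and *Btbd18*, a nuclear regulator of pachytene piRNA loci, from 15.6 ± 2.44 to 8.30 ± 0.880 CPM (log2 -0.91). *Mybl1* is given as the gene of A-MYB, whose motif core was searched, and *Tcfl5* as the gene of TCFL5, to which the E-box core was not tied here. *Tcfl5* rose in both genotypes, by 0.47 in WT (adjusted p = 0.0194, edgeR) and 1.03 in KO (adjusted p = 2.23e-05, edgeR), and the call in WT was lost when WT_d20_4, WT_d26_1 or WT_d26_2 was left out. The difference between these changes was 0.55 (adjusted p = 0.349, edgeR), and KO against WT at day 26 was 0.52 (adjusted p = 0.279, edgeR), neither of which was called, although the value at day 26 was called with that day fitted alone. *Mybl1* was at 0.01 in WT and -0.01 in KO.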

How the data were processed

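The study sequenced ribosome-depleted, strand-specific total RNA from testis as read pairs. Per the labels and methods, the authors aligned to mm10 with STAR 2.7.11b and counted pairs in exons with HTSeq, using the strand and dropping pairs with several alignments. Each library's deposited table holds unnormalised counts by gene symbol. Pairs tallied as having no feature, under the study's strict intersection and strand settings, were 45.1% to 58.5% of a table. Rows naming no gene entered neither library sizes nor tests. The study's text gives 3 replicates at day 20, and all 4 of the labels were used.

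Here counts were scaled by TMM and filtered by filterByExpr (minimum count 10), leaving 17170 genes, and fitted with 1 coefficient per group over all 24 libraries by edgeR 4.0.16 (limma 3.58.1, R 4.3.3, robust quasi-likelihood test, two-sided, adjusted over all genes). Figures used Python 3.11.15 and matplotlib 3.10.9. No 2 libraries of a group agreed within sampling noise. Genes were named by rule: every member, the other pathway genes called in KO against WT, the 3 largest changes each way in WT with age, and the gene nearest each member in profile. *Tcfl5* and *Mybl1* were added after their values were seen. Members and lists were chosen with earlier results of these data known. Alternatives were DESeq2 1.42.0, median-ratio (RLE) scaling, no filter, fits of the groups compared alone, a replicate block, and each library left out.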

Additional observations from a re-analysis of the deposited data

Results flagged for a closer look

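Of 40 groups of 4 libraries over the 10 members, 4 held a library far from the others by Dixon's test at the 95% level, where chance gives about 1 in 20. *Tdrd5* was at 196.4 CPM in WT_d20_1 against 140.3 to 145 CPM in the other 3. *Ddx4* was at 611.8 CPM in KO_d20_1 against 534 to 541 CPM. *Mael* was at 988.4 CPM in KO_d22_2 against 753 to 787 CPM, and *Mov10l1* was at 308.2 CPM in KO_d22_4 against 224 to 238 CPM. The low values of WT_d20_2 and the high ones of KO_d22_4 in other members did not reach this limit.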

How the results depend on the processing

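No member was called in KO against WT under any alternative, and the age counts of members in WT stayed at 3 or 4. With the replicate block, the members called in KO with age were 2 (*Ddx4* was lost), those in WT 4, and other pathway genes in KO 12, while 90 of all genes were called for the difference in change and 14 in the joint test, *Tdrd7* at day 20 stayed called and *Tdrd1* at day 20 turned to 0.028. The block was not taken as the main fit, because only 7 of 12 same-numbered pairs deviated together (correlation over 0.1, range -0.485 to 0.473). With WT_d20_2 and KO_d22_4 both omitted, 5 members were called with age in KO (*Piwil1* and *Piwil2* were gained) and 15 other pathway genes. The fit of all libraries called 8955 of 17170 genes with age in KO, and the share with both omitted is not given here. The KO against WT values that turned with both omitted were *Piwil1* to -0.13, *Piwil2* to -0.057 and *Piwil4* to 0.12 at day 20, and *Tdrd6* to -0.032 at day 22. Over the mean *Piwil2* turned to -0.069 and *Tdrd9* to -0.042, and *Tdrd9* with age in KO turned to 0.020. With only the groups compared, other pathway genes called were 0 at day 20 and 4 at day 26 (*Henmt1*, *Pld6*, *Tcfl5* and *Tex15*). Of all genes, 5 of 15265 and 2104 of 16465 were called in these fits. With age in KO, *Tdrd1* turned to 0.032 with DESeq2 and 0.032 with RLE, and *Tdrd9* to 0.083 with DESeq2, 0.083 with RLE and 0.020 with no filter, which also turned *Tdrd1* at day 20 to 0.0082. The cause of these was not tested.

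Leaving out 1 library at a time, other pathway genes called were 0 to 1 at day 20, 0 to 1 over the mean (*Pld6* without WT_d20_1) and 8 to 14 with age in KO (14 without WT_d20_2). In WT with age, *Ddx4* was lost without WT_d20_3 or WT_d26_2, and *Mov10l1* without WT_d26_1, while *Piwil4* was gained without WT_d20_3. In KO with age *Piwil1* was gained without WT_d20_2. Uncalled values whose sign turned ranged, at day 20, from -0.16 to 0.24 in *Piwil1*, -0.082 to 0.21 in *Piwil2*, -0.41 to 0.10 in *Piwil4*, -0.14 to 0.17 in *Tdrd1*, -0.020 to 0.16 in *Tdrd5*, -0.023 to 0.29 in *Tdrd9* and -0.12 to 0.073 in *Mov10l1*. At day 22 they ranged from -0.068 to 0.12 in *Tdrd6* and -0.0094 to 0.16 in *Mael*. At day 24 they ranged from -0.049 to 0.20 in *Piwil1*, -0.13 to 0.81 in *Piwil4*, -0.24 to 0.059 in *Tdrd1*, -0.19 to 0.10 in *Tdrd5*, -0.037 to 0.10 in *Mael* and -0.39 to 0.041 in *Mov10l1*. At day 26 they ranged from -0.17 to 0.014 in *Piwil2*, -0.86 to 0.19 in *Piwil4*, -0.15 to 0.046 in *Tdrd9* and -0.044 to 0.22 in *Ddx4*. Over the mean they ranged from -0.042 to 0.045 in *Piwil2*, -0.074 to 0.22 in *Piwil4* and -0.018 to 0.062 in *Tdrd9*. With age they ranged from -0.22 to 0.087 in *Tdrd5* in WT and -0.039 to 0.032 in *Tdrd9* in KO. Over all genes, the count called in KO against WT ranged, with 1 library left out, from 151 to 780 at day 20, 60 to 858 at day 22, 0 to 24 at day 24, 0 to 103 at day 26 and 302 to 1737 over the mean. At 6 to 25 counts a library, depth limits what can be said of *Piwil4*.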
